A study of Mus musculus with 24 samples.

Results

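Anti–CTLA-4 was 1 of 3 agents combined in mice bearing Panc02 tumors, and its effect was measured here over the whole factorial design, as the 4 treatment pools that received it (alone, with anti–PD-1, with PancVAX, and with both) against the 4 that did not. Panc02 is a mouse pancreatic cancer line, implanted subcutaneously in male C57BL/6 mice aged 6 to 7 weeks. All 8 pools carried the same wild-type host genotype and the same tumor. The pools without anti–CTLA-4 were Isotype Control, Anti-PD-1, PancVAX, and PancVAX + Anti-PD-1, and the study's methods name polyclonal Syrian hamster IgG and rat IgG2a as isotype antibodies, without saying which of them the pools given a single antibody received. Anti–CTLA-4 was given at 100 µg on days 15 and 22, anti–PD-1 at 100 µg from day 12, and PancVAX, a neoantigen peptide vaccine, on days 12 and 19 with 50 µg of peptide (per peptide by the methods), and tumors were taken on day 38; these are the days of the labels and methods, and another passage of the study differs on the second anti–CTLA-4 dose and the harvest. By the methods the vaccine also contained AddaVax and a STING agonist, which its control, PBS, did not. Each treatment was sequenced as 1 library of all dissociated tumor cells and 1 library enriched for immune cells on Percoll, so that a pool stands for several mice of 1 treatment, whose number neither labels nor methods state. The 8 pools are the units of every test below. Each treatment had 1 pool, so that no single treatment was replicated. Pools with different other agents stand in as replicates of anti–CTLA-4. The spread in the tests therefore also holds any dependence of its effect on those agents.

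CTLA-4 is an inhibitory receptor that T cells place on their surface after activation and that regulatory T cells carry constantly. It binds CD80 and CD86 on antigen-presenting cells more tightly than the costimulatory receptor CD28 does, and so withholds costimulation. Antibodies to CTLA-4 block that binding, and depending on their Fc part they can also lead Fc receptor–bearing macrophages to remove regulatory T cells. The 3 cell populations measured here stand for those roles: Cd3e+Cd8a+ cells (CD8 T cells), Foxp3+ cells (Foxp3 is the transcription factor that defines regulatory T cells), and C1qb+Cd3e− cells (C1qb encodes a complement subunit made by macrophages).

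Of 144994 barcodes, 57355 passed the limits on UMIs, genes, and mitochondrial share, 28236 with and 29119 without anti–CTLA-4. The limits on UMIs and genes have an upper end, so that cells with much RNA were also left out. How many barcodes the upper limits removed in each group is not reported here. The part passing differed within pairs in both directions. In Percoll libraries it was 7413 of 11979 with PancVAX and anti–PD-1 and 3516 of 8970 with anti–CTLA-4 added. It was 1793 of 5743 in the Isotype Control pool and 3331 of 10069 in the Anti-CTLA-4 pool. A cell entered a population when it had at least 1 UMI of the gene named. This gave 8836 Cd3e+Cd8a+ cells (4672 with and 4164 without anti–CTLA-4), 647 Foxp3+ cells (323 and 324), and 17973 C1qb+Cd3e− cells (9119 and 8854), together 27379 cells in at least 1 population. Summed UMIs per pool ran from 3477230 to 7297610 in Cd3e+Cd8a+ cells, from 185991 to 584094 in Foxp3+ cells, and from 8101450 to 11741400 in C1qb+Cd3e− cells. A single *Foxp3* UMI was found in 51.5% of Foxp3+ cells, a single *Cd8a* UMI in 23.3% of Cd3e+Cd8a+ cells (those with a single *Cd3e* UMI were not counted), and a single *C1qb* UMI in 19.0% of C1qb+Cd3e− cells. Markers were summed to check the populations, in lists without the genes used to choose the cells. Summed regulatory T cell markers reached 5903–9264 CPM (counts of a gene scaled to a common total) in Foxp3+ cells, against 2659.5–3741 CPM in Cd3e+Cd8a+ cells, where the pan–T cell gene *Cd3g* of the list had the most UMIs, and summed macrophage markers reached 19126–27969 CPM in C1qb+Cd3e− cells, against 289–521 CPM in Cd3e+Cd8a+ cells. Foxp3+ cells also held macrophage RNA, at 1437–3672 CPM with and 263–2191 CPM without anti–CTLA-4. A *C1qb* UMI occurred in 14.4% of Cd3e+Cd8a+ cells with and 14.6% without the antibody, and free RNA and doublets were not told apart. Between 16.2% and 18.1% of the barcodes of each library also occurred in another library.

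No gene passed the threshold for anti–CTLA-4 in any of the 3 populations. The threshold was an adjusted P below 0.05 by the quasi-likelihood test of edgeR with a log2 difference beyond 0.5, with PancVAX and anti–PD-1 as covariates. In Cd3e+Cd8a+ cells 0 of 10402 genes passed (0%) and 419 (4.03%) had an unadjusted P below 0.05, in Foxp3+ cells 0 of 3907 (0%) and 107 (2.74%), and in C1qb+Cd3e− cells 0 of 12239 (0%) and 349 (2.85%). Evenly spread P values would put 5% there. DESeq2 on the same sums called 1, 0, and 2 genes, which are named below. In the same fit PancVAX changed 1039 genes of Cd3e+Cd8a+ cells (9.99%, with 33.5% at an unadjusted P below 0.05). It changed 0 genes of Foxp3+ cells (6.50% at an unadjusted P below 0.05) and 0 of C1qb+Cd3e− cells (13.7%) by edgeR. Anti–PD-1 changed 0 genes in each of the 3 populations by edgeR. The median absolute log2 difference in Cd3e+Cd8a+ cells was 0.09 for anti–CTLA-4, 0.09 for anti–PD-1, and 0.19 for PancVAX.

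**Figure D1:**
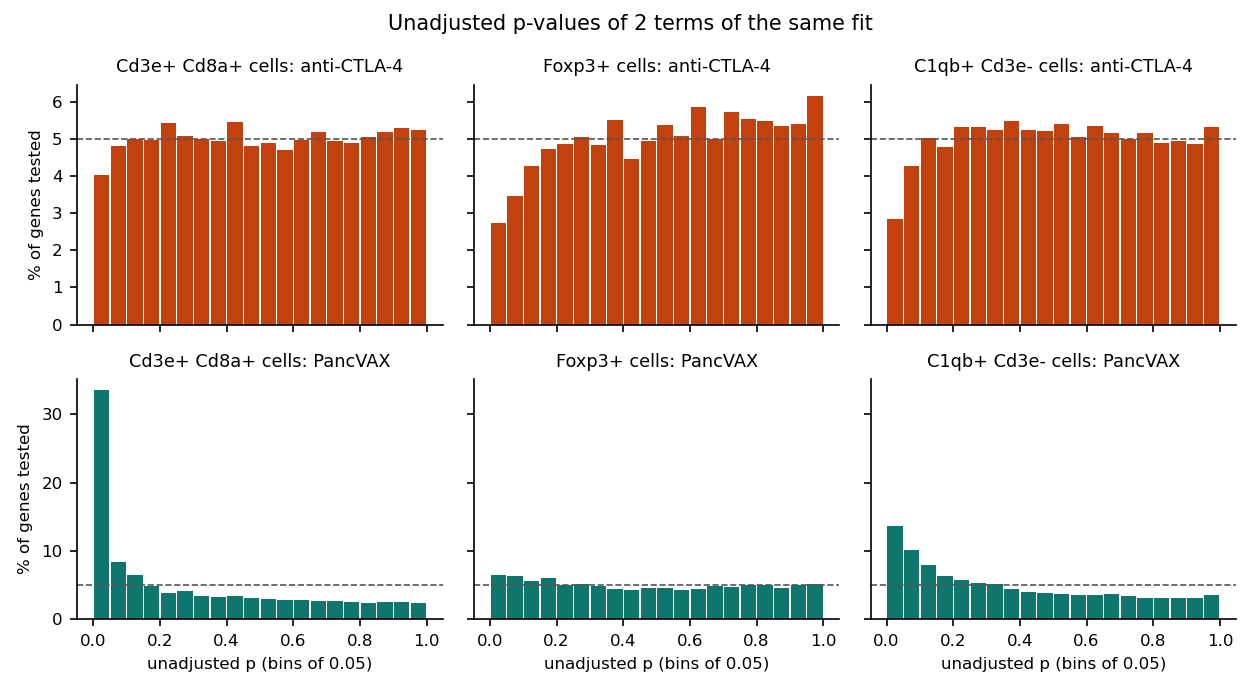
Unadjusted P values of the anti–CTLA-4 term (upper row) and the PancVAX term (lower row) of the same edgeR fit over 8 pools, as the percentage of genes tested in bins of 0.05, with the level of an even distribution (5%) dashed. The lowest bin of anti–CTLA-4 held 4.03%, 2.74%, and 2.85% of genes in the 3 populations, below the dashed line, whereas that of PancVAX held 33.5% in Cd3e+Cd8a+ cells. The vertical scales of the rows differ.

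The absence of calls has a size attached. The 95% interval of the log2 difference lay within 2-fold in either direction for 9678 genes of Cd3e+Cd8a+ cells (93.0%), 10909 of C1qb+Cd3e− cells (89.1%), and 3252 of Foxp3+ cells (83.2%). It lay within 1.5-fold for 73.0%, 69.3%, and 28.9% of genes, so that in the Foxp3+ sums, the shallowest of the 3, a change of 1.5-fold lay inside the interval for most genes. A change of 2-fold would not always have been called, as the simulated data described with the processing show. The intervals are of the mean difference over the combinations of the other agents. They do not bound a change confined to a single combination. Values below are CPM of the summed cells, given in the order without any other agent, with anti–PD-1, with PancVAX, and with both, first for the 4 pools without and then for the 4 pools with anti–CTLA-4. Each member of the first group has a matched pool in the second that differs only in anti–CTLA-4. Log2 differences below are from edgeR with 95% intervals of the single gene, not adjusted for the number of genes. The lowest adjusted P over all genes was 1.00 in Cd3e+Cd8a+ cells, 1.00 in Foxp3+ cells, and 0.19 in C1qb+Cd3e− cells by edgeR. In sums of cells, a lower level in every cell cannot be told apart from fewer cells that hold the RNA.

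*Ctla4* itself, the target of the antibody, was higher in Cd3e+Cd8a+ cells of every pool that received it. Its levels were 167, 156, 142, and 152 CPM without and 194, 173, 183, and 183 CPM with anti–CTLA-4. The groups did not overlap, which was so for 0.798% of all genes in this direction. Without any effect, 1 of the 70 divisions of the 8 pools would set the groups apart in a given direction. The log2 difference was 0.25 (SE 0.07, 95% interval 0.10 to 0.39, adjusted P = 1.0). It was 0.28 from Percoll libraries, 0.12 from whole-tumor libraries, and 0.02 when cells above the upper limits on UMIs and genes were kept. *Ctla4* mRNA was far more abundant in Foxp3+ cells, where the groups overlapped: 1120.1, 1449, 1770, and 940.2 CPM without and 867, 1148, 1446, and 1785 CPM with the antibody. The log2 difference there was −0.04 (SE 0.21, 95% interval −0.49 to 0.42), lower in 3 pairs and higher in the pair with both other agents. It was −0.30 when cells above the upper limits were kept and 0.14 from whole-tumor libraries, and it ran from −0.34 (without the PancVAX + Anti-PD-1 pool) to 0.15 (without the Anti-PD-1 pool) when 1 pool at a time was left out, so that its sign was not settled. C1qb+Cd3e− cells held 0.84–4.54 CPM.

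The inhibitory receptors and exhaustion genes of Cd3e+Cd8a+ cells varied around 0. Of the 12 genes of this list, which holds *Ctla4* itself and *Tox*, a transcription factor of exhausted T cells, 0 passed the threshold, 8 were higher and 4 lower, 2 (*Ctla4* and *Cd200r1*) had an unadjusted P below 0.05 and a higher level (1.75% of all genes), and the median log2 difference was 0.07 against 0.00 over all genes. *Pdcd1*, which encodes PD-1, had 423, 435, 322, and 295 CPM without and 399, 505, 331, and 403 CPM with anti–CTLA-4 (log2 0.16, 95% interval −0.02 to 0.34). *Tox* (0.11, −0.12 to 0.35) and *Havcr2*, encoding TIM-3 (−0.16, −0.41 to 0.09), likewise had intervals that include 0. *Cd200r1*, another inhibitory receptor, was higher in 4 of 4 pairs (log2 0.27, 95% interval 0.04 to 0.51), as were 6.32% of all genes tested (5.75% were lower in 4 of 4). It was 0.02 when cells above the upper limits were kept, and 0.46 in Percoll and 0.04 in whole-tumor libraries. The lowest log2 difference of the list was that of *Eomes* (−0.32).

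Among 16 genes of cytotoxicity and effector cytokines, 10 were higher and 6 lower (median 0.08), and 4 had an unadjusted P below 0.05, 3 of them higher (1.75% of all genes) and 1 lower (2.28%). The pair medians were 0.06, 0.13, −0.24, and 0.32, and the list median was −0.11 when cells above the upper limits were kept. *Xcl1*, a chemokine of activated CD8 T cells that attracts cross-presenting dendritic cells, had 716, 499.7, 261, and 209 CPM without and 705, 709, 448, and 309 CPM with anti–CTLA-4. It was level in the pair without other agents and higher in the other 3, with a log2 difference of 0.46 (SE 0.11, 95% interval 0.22 to 0.70), and the groups overlapped, the PancVAX pools having the lower levels. *Tnf* (0.37, 95% interval 0.07 to 0.67) and *Ccl5* (0.21, 95% interval 0.04 to 0.37) had smaller differences of the same sign. With cells above the upper limits kept, *Xcl1* differed by 0.25, *Tnf* by 0.06, and *Ccl5* by 0.11, and without the Isotype Control pool *Ccl5* differed by 0.11. *Tnf* was 0.25 in Percoll and 0.61 in whole-tumor libraries. *Gzmk*, the granzyme of early effector and memory cells, was lower in 4 of 4 pairs, at 109.6, 99.2, 221, and 191 CPM without and 66.7, 93.7, 166, and 176 CPM with the antibody (log2 −0.32, 95% interval −0.54 to −0.09; −0.16 in Percoll and −0.53 in whole-tumor libraries). The lowest log2 difference of the list was that of *Gzma*, another granzyme (−0.54). *Gzmb* (0.07, 95% interval −0.24 to 0.38) and *Ifng* (0.21, −0.13 to 0.56), effectors of killing, did not differ beyond the spread of the pools.

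Interferon-stimulated genes, which antiviral signaling induces, lay on 1 side: 12 of 12 had a negative log2 difference in Cd3e+Cd8a+ cells, with a median of −0.31 against 0.00 over all genes, although 0 passed the threshold. *Ifit3*, an antiviral effector, had 17.0, 17.6, 89.4, and 44.9 CPM without and 6.78, 9.30, 43.3, and 51.8 CPM with anti–CTLA-4. It was lower in 3 pairs and higher in the pair with PancVAX and anti–PD-1 (log2 −0.64, SE 0.23, 95% interval −1.14 to −0.14). *Ifit1*, of the same family, was lower in 4 of 4 pairs, at 10.2, 10.6, 54.6, and 41.0 CPM without and 4.87, 8.00, 32.7, and 34.1 CPM with it (−0.55, SE 0.15, 95% interval −0.87 to −0.22). *Rsad2*, encoding viperin (−0.63, 95% interval −1.10 to −0.16), and *Irf7*, a transcription factor that amplifies interferon production (−0.35, 95% interval −0.68 to −0.01), made up the 4 members with an unadjusted P below 0.05 and a lower level, as in 2.28% of all genes tested.

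The sign of this list was not shared by every pair. Its median log2 difference was −0.39 without other agents, −0.15 with anti–PD-1, and −0.68 with PancVAX, but 0.11 with both. By preparation it was −0.34 (Percoll) and −0.31 (whole tumor), and it was −0.13 when cells above the upper limits were kept. Leaving out 1 pool at a time, it ran from −0.46 to −0.10. Without the PancVAX + Anti-PD-1 pool *Ifit3* passed the threshold (log2 −1.06, adjusted P = 0.00716 by edgeR), so that its call depends on that pool, and without the PancVAX pool it was −0.36. Between the same 2 omissions *Rsad2* ran from −0.97 to −0.34, and *Irf7* ran from −0.55, without the PancVAX + Anti-PD-1 pool, to −0.21, without the Anti-CTLA-4 pool. With cells above the upper limits kept, *Ifit3* differed by −0.24, *Ifit1* by −0.27, *Rsad2* by −0.42, and *Irf7* by −0.24, and without shared barcodes *Rsad2* differed by −0.39. Members also differed in level between pools with and without PancVAX, as the range of *Ifit3* shows. Summed markers of other cell types also differed in Cd3e+Cd8a+ cells, in both directions. Endothelial markers (5 genes, all detected) were 17.0–19.1 CPM without and 11.2–16.8 CPM with anti–CTLA-4, lower in 4 of 4 pairs, also where the list median was 0.11. The groups did not overlap, as was so for 0.884% of single genes in this direction. Macrophage markers (9 genes) were 378–521 and 289–478 CPM, and NK cell markers (5 genes) 24.3–34.5 and 21.03–28.8 CPM. Mast cell markers (4 genes) were 11.6–252 and 5.74–13.4 CPM, and each of these 3 sums was lower in 3 of 4 pairs. B cell, neutrophil, and keratinocyte markers were higher in 3 of 4 pairs. Their part in the result was not tested.

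In C1qb+Cd3e− cells the list of type I interferon–stimulated genes had the same sign, with 10 of 10 members lower and a median of −0.27 against −0.01 over all genes. The median was −0.15 (Percoll) and −0.38 (whole tumor) by preparation, and it ran from −0.35 to −0.09 when 1 pool at a time was left out, nearest 0 without the PancVAX pool. *Ifit3* had 36.4, 30.3, 52.9, and 25.1 CPM without and 25.7, 25.6, 19.4, and 25.8 CPM with anti–CTLA-4 (log2 −0.55, SE 0.22, 95% interval −1.05 to −0.05), and it differed by −0.28 without the PancVAX pool and by −0.34 without the PancVAX + Anti-CTLA-4 pool. *Oasl1*, an oligoadenylate synthetase–like antiviral gene, was lower in 4 of 4 pairs, as were 5.79% of all genes tested (−0.30, 95% interval −0.56 to −0.03). It differed by −0.18 in Percoll and −0.43 in whole-tumor libraries, and by −0.49 when cells above the upper limits were kept. These 2 members had an unadjusted P below 0.05 and a lower level, as had 1.82% of all genes. *Isg15* (−0.13, 95% interval −0.42 to 0.17) and *Bst2*, encoding tetherin (−0.04, −0.24 to 0.16), were nearer 0. The pairs again split: the median was −0.43, −0.08, and −0.59 in the first 3 and 0.15 with PancVAX and anti–PD-1. Both populations came from the same libraries, so that the 2 lists are not independent of each other. In C1qb+Cd3e− cells the median UMIs per cell and the summed neutrophil and dendritic cell markers were higher with the antibody in 4 of 4 pairs (values with the other macrophage lists), and the summed CD8 T cell (24.7–67.8 CPM without, 13.5–48.8 CPM with), regulatory T cell (55.7–99.2 and 37.2–72.8 CPM), and fibroblast markers (146–405 and 99.7–273 CPM) were lower in 3 of 4. Their part in the result was not tested.

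**Figure D2:**
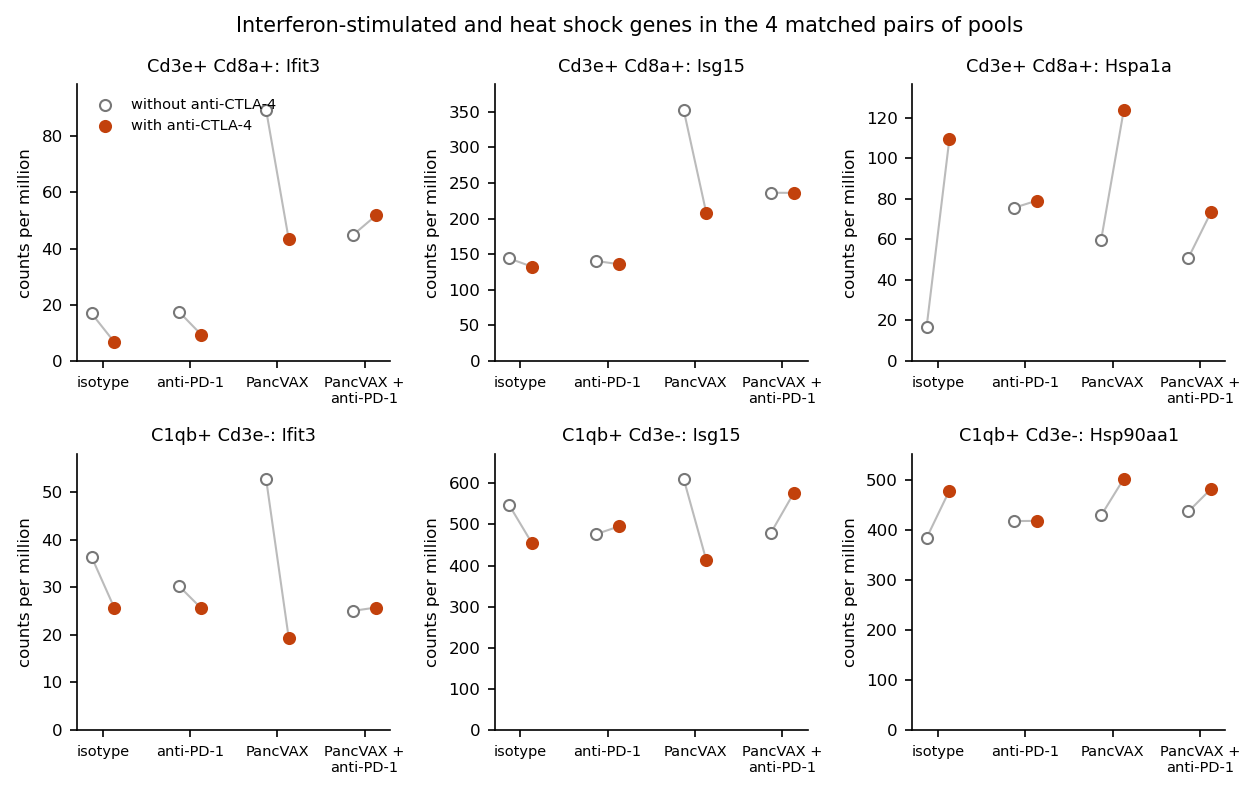
CPM of 3 genes in Cd3e+Cd8a+ cells (upper row) and 3 genes in C1qb+Cd3e− cells (lower row), with matched pools joined by a line, open points without and filled points with anti–CTLA-4. *Ifit3* was lower with the antibody in 3 of 4 pairs of both populations, for example 89.4 against 43.3 CPM with PancVAX alone in Cd3e+Cd8a+ cells, and *Hspa1a* was higher in 4 of 4 pairs. Each panel starts at 0 and has its own scale.

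Genes that tissue dissociation is known to induce, a sign of how samples were handled, include heat shock and immediate early genes. Of the 12 members of this list 0 passed the threshold in Cd3e+Cd8a+ cells, 9 had a positive and 3 a negative difference (median 0.13), and 4, all heat shock genes, had an unadjusted P below 0.05 and a higher level, as in 1.75% of all genes tested. The list median was 0.03 in Percoll and 0.39 in whole-tumor libraries, and the pair medians were 0.54, 0.05, 0.23, and 0.09, the largest without other agents. *Hsp90aa1*, a chaperone, had 381, 440.1, 422, and 461 CPM without and 561, 489, 588, and 474 CPM with anti–CTLA-4, with no overlap, as in 0.798% of all genes in this direction (log2 0.31, SE 0.08, 95% interval 0.12 to 0.49). *Hspa1a*, an inducible HSP70, had 17.0, 75.5, 59.8, and 50.9 CPM without and 109, 79.0, 124, and 73.5 CPM with it (0.90, SE 0.32, 95% interval 0.18 to 1.62). *Dnajb1*, its cochaperone (0.43), and *Hspa1b*, a near-identical copy of *Hspa1a* with which reads can be shared (0.81), had a positive difference in 4 of 4 pairs, and *Hspb1* in 1 of 4 (−0.19, SE 0.45). Leaving out 1 pool at a time moved *Hspa1a* from 0.51 (without the Isotype Control pool) to 1.31 (without the Anti-PD-1 pool) and *Hspa1b* from 0.50 (without the Isotype Control pool) to 1.11 (without the pool given all 3 agents). Of the immediate early genes on the same list, *Jun* differed by 0.31 (SE 0.17) and was higher in 4 of 4 pairs, *Fos* differed by 0.17 (SE 0.10) and *Atf3* by 0.09 (SE 0.19), each higher in 3 of 4, and *Junb* differed by 0.00 and *Egr1* by −0.11. The summed list was 2733–4038 CPM without and 2925–4234 CPM with the antibody. The mitochondrial share of the UMIs of Cd3e+Cd8a+ cells was 3.20%, 2.99%, 2.34%, and 2.30% without and 2.90%, 2.37%, 2.44%, and 1.94% with it, lower in 3 of 4 pairs. The part of handling in these values was not tested. The same list had 8 genes higher and 4 lower in C1qb+Cd3e− cells (median 0.05), with *Hspa1a* at 0.50 (SE 0.30) and *Hsp90aa1* at 0.17 (SE 0.07), the latter higher in 4 of 4 pairs. In Foxp3+ cells 4 of its 10 tested genes were higher and 6 lower (median −0.07), with *Hspa1a* at −0.57 (SE 0.44). Whether the populations differed in this was not tested.

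The remaining lists of Cd3e+Cd8a+ cells had medians near 0. T cell receptor activation (16 genes, 11 higher, median 0.03), costimulatory receptors (8 genes, 5 higher, median 0.02), cell cycle (12 genes, 8 higher, median 0.07), homing and residency (10 genes, 9 higher, median 0.07), and naive and memory genes (10 genes, 2 higher, median −0.08) each had 0 genes past the threshold. The pairs differed in sign within some of them, with pair medians of −0.01, 0.50, −0.22, and 0.00 for cell cycle and −0.05, −0.46, 0.23, and 0.01 for naive and memory genes. *Cd28*, the costimulatory rival of CTLA-4, had 129, 171, 228, and 198 CPM without and 188, 165, 262, and 205 CPM with anti–CTLA-4 (log2 0.17, 95% interval −0.06 to 0.40). *Mki67*, the proliferation marker, differed by −0.05 (−0.39 to 0.29). *Il7r*, the receptor of a T cell survival cytokine, differed by 0.00 (−0.19 to 0.19), and *Bcl2*, which protects T cells from death, was higher in 4 of 4 pairs (0.14, 95% interval 0.00 to 0.27, and 0.00 when cells above the upper limits were kept). The intervals of *Il7r* and *Bcl2* lie within 1.5-fold.

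**Figure D3:**
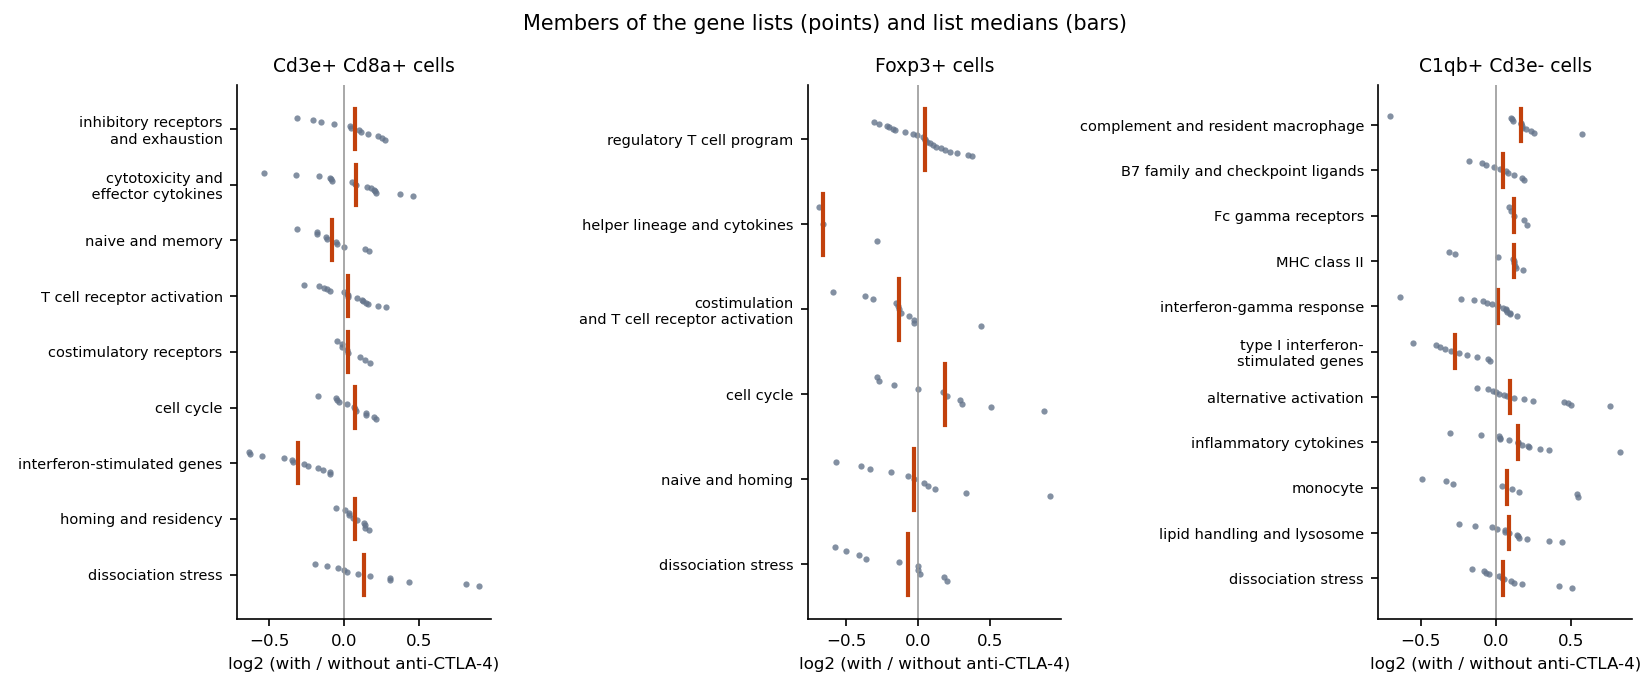
Log2 difference with over without anti–CTLA-4 (edgeR) of each tested member of the gene lists (points, spread vertically in order of value) and the list medians (bars) in the 3 populations. The medians lie between −0.08 and 0.13 for 8 of the 9 lists of Cd3e+Cd8a+ cells, and the interferon-stimulated genes stand at −0.31. The helper list of Foxp3+ cells has 3 tested members.

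The 5 genes of Cd3e+Cd8a+ cells with the lowest P, none past the threshold, were *Tgtp2*, *Trbv15*, *Gsta4*, *Stard4*, and *Efcab14*. *Tgtp2*, an interferon-induced GTPase of T cells, was lower in 4 of 4 pairs, at 20.5, 21.8, 41.6, and 42.7 CPM without and 12.5, 15.1, 30.5, and 29.4 CPM with anti–CTLA-4 (log2 −0.54, SE 0.09, 95% interval −0.75 to −0.33, adjusted P = 1.0). It has a near-identical copy, *Tgtp1* (−0.46, SE 0.24), and reads may be split between them. *Gsta4*, a glutathione transferase (−1.16), and *Efcab14* (−0.40) were lower and *Stard4*, a sterol carrier (0.40), was higher in 4 of 4 pairs. With cells above the upper limits kept, *Gsta4* differed by −0.01, *Tgtp2* by −0.28, *Efcab14* by −0.24, and *Stard4* by 0.25. *Efcab14* had no overlap of groups, at 33.9–37.5 CPM without and 25.1–29.7 CPM with it, as had 0.884% of all genes in this direction.

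*Trbv15*, a T cell receptor V segment, was the gene that DESeq2 called (log2 −0.95, adjusted P = 0.0077). Its levels were 30.1, 61.2, 55.6, and 90.8 CPM without and 11.0, 20.5, 39.8, and 66.5 CPM with anti–CTLA-4, and edgeR gave −0.90 (SE 0.18, 95% interval −1.30 to −0.49), which passed the threshold with no filter on low counts (−0.89, adjusted P = 0.00848). That fit adds genes with few counts and leaves the *Trbv15* counts as they were, so that its P depends on the added genes. In the receptor contigs, sequenced from the same Percoll cells, TRBV15 was carried by 0.893%, 2.29%, 1.84%, and 3.64% of typed Cd3e+Cd8a+ cells without and by 0.541%, 0.645%, 1.53%, and 3.03% with the antibody. These shares rest on 2 to 24 cells per pool, in clones of at most 4 cells. Foxp3+ cells also had less *Trbv15* in 4 of 4 pairs (−1.86, 95% interval −2.93 to −0.79). There it ran from −2.79 (without the PancVAX + Anti-PD-1 pool) to −1.08 (without the PancVAX pool) when 1 pool at a time was left out, and it passed the threshold in edgeR in the first of these (adjusted P = 0.0196). It also passed with no filter on low counts (adjusted P = 3.02e-06 by edgeR), again with its own counts unchanged. In Cd3e+Cd8a+ cells 12 of 66 T cell receptor segments tested had an unadjusted P below 0.05, against 4.03% of all genes, and the part of single clones in this was not tested.

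**Figure D4:**
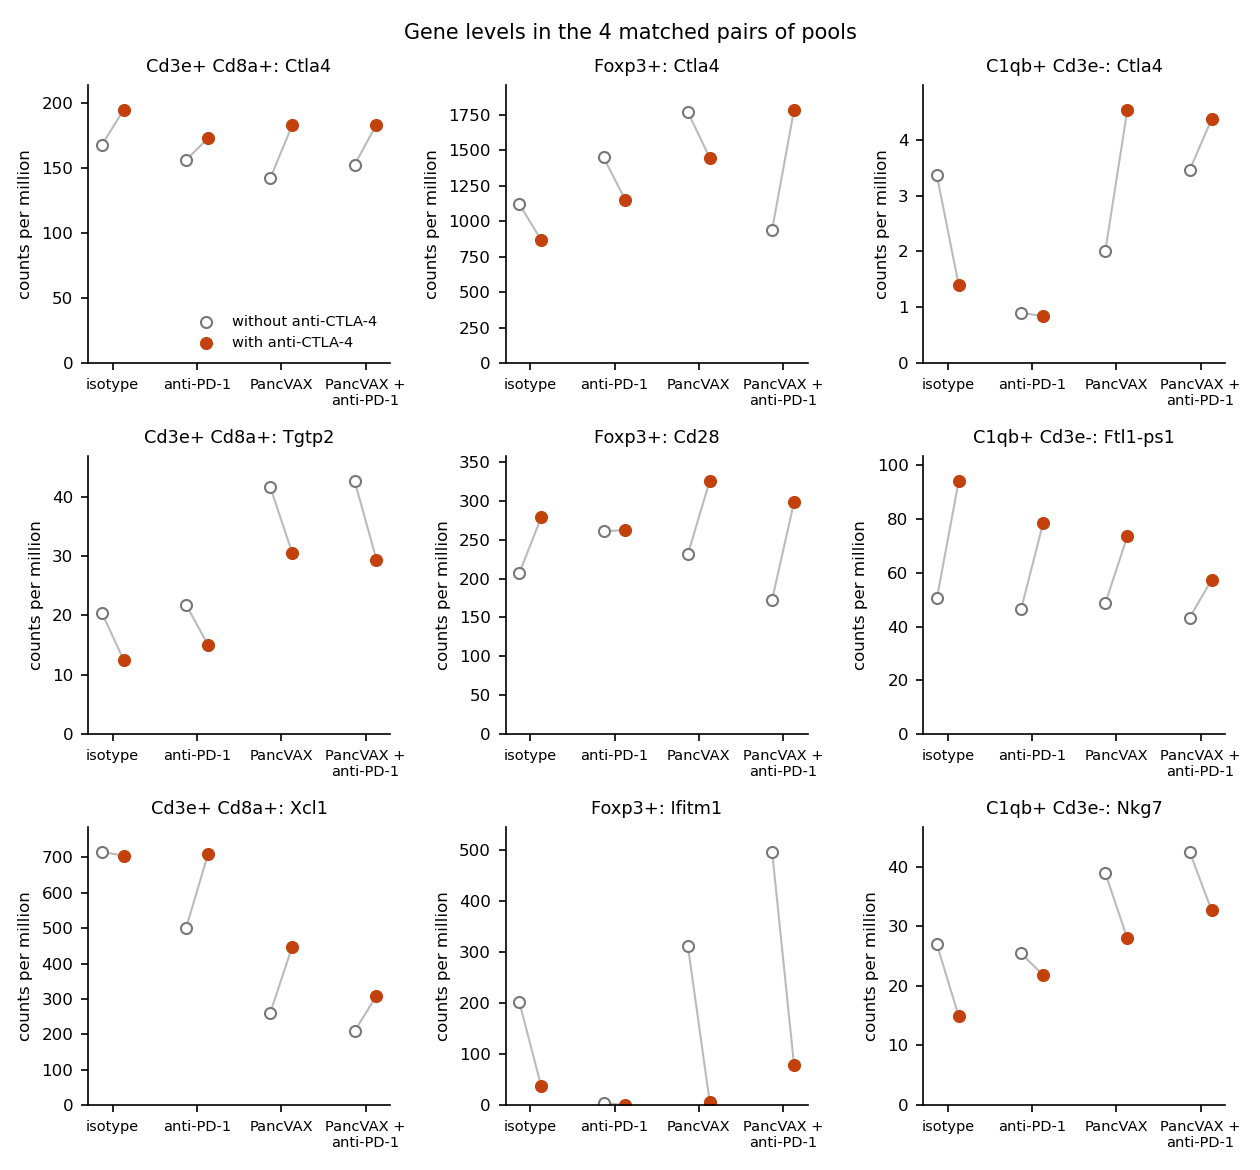
CPM of 3 genes in each population (columns: Cd3e+Cd8a+, Foxp3+, and C1qb+Cd3e− cells), with matched pools joined by a line, open points without and filled points with anti–CTLA-4. *Ctla4* in Cd3e+Cd8a+ cells (142–167 CPM without, 173–194 CPM with), *Cd28* in Foxp3+ cells (173–261 and 263–326 CPM), and *Ftl1-ps1* in C1qb+Cd3e− cells (43.3–50.4 and 57.4–94.2 CPM) did not overlap between the groups. The same held for 0.798%, 1.18%, and 0.801% of all genes tested in this direction. Each panel starts at 0 and has its own scale.

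A pool held 49 to 142 Foxp3+ cells, and 546 of all 647 were Cd3e+. With anti–CTLA-4 12 of 323 and without it 33 of 324 were also Cd3e+Cd8a+, 21 of the 33 in the PancVAX + Anti-PD-1 pool. Gene values without these cells are not reported here, and their part in the values of Foxp3+ cells was not tested. In Foxp3+ cells the genes of the regulatory program lay on both sides of 0. Of its 22 genes 13 were higher and 9 lower, 0 had an unadjusted P below 0.05, and the median log2 difference was 0.05 against −0.01 over all genes. *Il2ra*, the high-affinity IL-2 receptor chain that regulatory T cells depend on, had 531, 419, 508, and 461 CPM without and 334, 386, 465, and 525 CPM with anti–CTLA-4 (log2 −0.16, 95% interval −0.51 to 0.19). *Ikzf2*, encoding the lineage factor Helios (0.10, −0.21 to 0.41), and *Tnfrsf18*, encoding GITR (0.04, −0.33 to 0.42), also spanned 0. *Icos*, a costimulatory receptor of activated regulatory T cells, had 764, 868, 865, and 683 CPM without and 483, 525, 762, and 1055 CPM with it (−0.21, −0.64 to 0.21). The pairs disagreed for the program, with medians of −0.53, 0.00, 0.05, and 0.65 in the order given. The program's median was −0.26 when cells above the upper limits were kept and −0.07 in whole-tumor libraries, and with those cells kept *Il2ra* differed by −0.52 and *Ikzf2* by −0.26, both outside the intervals above.

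*Cd28*, which competes with CTLA-4 for CD80 and CD86, was the costimulatory gene of Foxp3+ cells that stood out: 207, 261, 231, and 173 CPM without and 279, 263, 326, and 298 CPM with anti–CTLA-4. It was higher in 4 of 4 pairs, as were 5.3% of genes tested, with no overlap of groups, as in 1.18%, although in the anti–PD-1 pair the 2 values were nearly equal (log2 0.44, SE 0.18, 95% interval 0.05 to 0.82). It was −0.11 when cells above the upper limits were kept. The other 10 tested genes of costimulation and T cell receptor activation were lower (list median −0.13), with pair medians of −0.05, −0.42, 0.29, and −0.17. *Nr4a3*, an early target of T cell receptor signaling, had 154, 244, 221, and 300.0 CPM without and 149, 109, 169, and 190.0 CPM with it (−0.59, SE 0.20, 95% interval −1.02 to −0.16). *Nr4a1*, its relative, differed by −0.37 (95% interval −0.73 to −0.01), and these 2 made up the members with an unadjusted P below 0.05 and a lower level, as in 1.41% of all genes tested. The *Nr4a1* difference was −0.01 when cells above the upper limits were kept and −0.16 in whole-tumor libraries.

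Of 13 genes of helper lineages and cytokines only 3 reached the filter on low counts in Foxp3+ cells, and the other 10, among them *Tbx21* and *Ifng*, were not tested. *Cxcr3*, a homing receptor of Th1-like cells, was lower in 4 of 4 pairs, at 111, 137, 292, and 106 CPM without and 80.5, 63.8, 145, and 103 CPM with anti–CTLA-4 (log2 −0.66, 95% interval −1.23 to −0.09), as were 5.2% of all genes tested. It was −0.29 in whole-tumor libraries and −0.38 without the PancVAX pool. *Tnf* differed by −0.68 (95% interval −1.33 to −0.04), and *Gata3*, the Th2 factor that regulatory T cells also use, by −0.28 (95% interval −0.76 to 0.20). *Cxcr6*, a receptor of tissue-resident T cells, had 58.4, 47.0, 65.4, and 65.4 CPM without and 18.6, 82.5, 137, and 202 CPM with it (0.91, 95% interval 0.17 to 1.66). The last value was from the pool with all 3 agents, and the pair without other agents had the opposite sign. *Cxcr6* belongs to the naive and homing list, of which 5 tested genes were higher and 6 lower (median −0.03), with *S1pr1* (−0.57) and *Itgb1* (−0.39) lower in 4 of 4 pairs. The *Cxcr6* difference was −0.02 when cells above the upper limits were kept. *Birc5*, a mitotic gene, was higher in 3 pairs (0.87, 95% interval 0.14 to 1.60, and 0.37 when cells above the upper limits were kept), whereas *Mki67* differed by 0.20 (−0.39 to 0.79), and of the cell cycle list 6 tested genes were higher and 4 lower.

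The 5 genes of Foxp3+ cells with the lowest P were *Gm47283*, *Ifitm1*, *Trbv15*, *Clcn3*, and *Gem*. *Ifitm1*, an interferon-induced membrane protein, had 202, 4.28, 312, and 496 CPM without and 37.2, 0, 5.82, and 78.4 CPM with anti–CTLA-4, lower in 4 of 4 pairs (log2 −3.14, SE 0.82, 95% interval −4.91 to −1.36). It passed the threshold when the 4 combinations of the other agents were a block (−3.22, adjusted P = 0.00382 by edgeR). It also passed with no filter on low counts (−3.08), where genes with few counts enter the fit and its own counts are unchanged. Its adjusted P there (9.57e-22 by edgeR) therefore depends on the added genes and is no further support. Its values spanned 2 orders of magnitude within a group, and over all pools it had 393 UMIs. Markers of another cell type also differed: summed keratinocyte markers were 4.82–531 CPM without and 0–3.38 CPM with the antibody, lower in 4 of 4 pairs. Their median without the antibody was 8.37 CPM, far below the highest value, whereas *Ifitm1* was above 200 CPM in 3 of those pools. Summed neutrophil markers were 3.81–1489 and 5.38–342 CPM, higher in 2 of 4 pairs. Their part in the result was not tested. *Gem*, a GTPase induced in activated T cells, did not overlap (133–186 CPM without, 223–285 CPM with, 0.65, 95% interval 0.25 to 1.05), as was so for 1.18% of all genes tested in this direction. With cells above the upper limits kept, *Gem* differed by 0.32 and *Ifitm1* by −1.65.

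C1qb+Cd3e− cells carry the ligands of CTLA-4, and for neither did the pools differ beyond their spread with the limits on cells used here. *Cd80* had 29.4, 26.1, 29.9, and 34.6 CPM without and 21.9, 28.6, 37.3, and 31.7 CPM with anti–CTLA-4 (log2 −0.02, 95% interval −0.30 to 0.26). *Cd86* had 86.2, 106, 88.7, and 90.6 CPM without and 79.3, 95.2, 93.1, and 113 CPM with it (0.03, −0.18 to 0.24). The *Cd86* difference was −0.37, outside this interval, when cells above the upper limits were kept and −0.24 in whole-tumor libraries, and that of *Cd80* was −0.22 in both. The 10 genes of the B7 family and checkpoint ligands had a median of 0.05 (6 higher, 4 lower), which was −0.19 with those cells kept and −0.11 in whole-tumor libraries, and *Cd274*, encoding PD-L1, differed by 0.17 (−0.15 to 0.49).

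Fc gamma receptors, through which macrophages engage antibody-coated cells, had a positive difference for 5 of 5 genes (median 0.12, 0 with an unadjusted P below 0.05 by edgeR). *Fcgr4*, an activating receptor, had 599.6, 753, 574, and 380.2 CPM without and 763, 761, 447, and 655 CPM with the antibody (log2 0.19, 95% interval −0.20 to 0.57). *Fcer1g*, the signaling chain the activating receptors share, differed by 0.21 (−0.07 to 0.49), and *Fcgr2b*, the inhibitory receptor, by 0.09 (−0.23 to 0.40). The pair medians were 0.01, 0.02, −0.07, and 0.68, the last, with PancVAX and anti–PD-1, being the one above 0.02. The median was 0.28 from Percoll libraries, −0.09 from whole-tumor libraries, and −0.30 when cells above the upper limits were kept.

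The other macrophage lists had medians of similar size. Complement and resident genes (11 of 12 higher, median 0.17), MHC class II (7 of 9, median 0.12), inflammatory cytokines (12 of 14, median 0.15), alternative activation (11 of 14, median 0.10), and lipid handling and lysosome genes (10 of 13, median 0.09) had mostly positive differences, with 0 genes past the threshold. All 5 of these medians were positive in Percoll libraries (0.22 to 0.36) and negative in whole-tumor libraries (−0.12 to −0.01) and when cells above the upper limits were kept (−0.27 to −0.06). The pair medians were −0.06, −0.06, 0.12, and 0.58 for complement and −0.01, −0.04, 0.03, and 0.53 for MHC class II, the largest with PancVAX and anti–PD-1, and the complement median ran from 0.01, without the PancVAX + Anti-PD-1 pool, to 0.30 when 1 pool at a time was left out. The median UMIs per C1qb+Cd3e− cell were 3844, 3506, 3035, and 3597 without and 4972, 3901.5, 3042, and 4366.5 with the antibody, higher in 4 of 4 pairs. Markers of other cells moved with them: in these cells summed neutrophil markers were 770–1332 CPM without and 786–1759 CPM with the antibody, and summed dendritic cell markers 34.6–52.0 and 51.8–58.7 CPM, both higher in 4 of 4 pairs, as were 5.32% of all genes. Their part was not tested. *C3*, the central complement protein, had 20.9, 34.2, 39.6, and 43.4 CPM without and 41.6, 52.0, 64.8, and 41.9 CPM with anti–CTLA-4 (log2 0.57, SE 0.20, 95% interval 0.11 to 1.03), and it kept its sign in Percoll (0.70) and whole-tumor libraries (0.44). *Arg1*, the arginase of suppressive macrophages, ranged from 18.1 to 107 CPM without and from 47.7 to 103 CPM with it (0.48, 95% interval −0.47 to 1.43), so that a rise of *Arg1* by 2-fold lies within the interval. The *Arg1* difference was −0.14 when cells above the upper limits were kept, and it ran from 0.21 (without the Isotype Control pool) to 1.12 (without the PancVAX pool) when 1 pool at a time was left out. *Cxcl9*, the chemokine that interferon-gamma induces in macrophages, differed by 0.14 (−0.38 to 0.66), and the interferon-gamma list had a median of 0.01. *Nos2* (−0.64, −1.65 to 0.37) was nearly undetected, at 0.378–3.60 CPM. The monocyte list was split, with *Ly6c2* at −0.49 and *Vcan* at 0.55 (median 0.07), but *Ly6c2* was −0.09 without the Isotype Control pool and *Vcan* was −0.06 when cells above the upper limits were kept.

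The 5 genes of C1qb+Cd3e− cells with the lowest P were *Igkv12-44*, *Ftl1-ps1*, *Dynlt1b*, *Nkg7*, and *Sept1*, and the first 2 were called by DESeq2. *Ftl1-ps1* had 50.4, 46.5, 48.7, and 43.3 CPM without and 94.2, 78.4, 73.6, and 57.4 CPM with anti–CTLA-4, with no overlap of groups, as in 0.801% of genes tested (log2 0.67, SE 0.09, 95% interval 0.46 to 0.87, adjusted P = 0.549). DESeq2 gave the same size (0.67, adjusted P = 0.000686). By its name *Ftl1-ps1* is a processed copy of the ferritin light chain gene *Ftl1*, whose own level was 7083–9472 CPM and which differed by 0.01 (95% interval −0.17 to 0.19), so that its reads are uncertain. By preparation the difference of *Ftl1-ps1* was 0.67 (Percoll) and 0.62 (whole tumor).

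*Igkv12-44*, an immunoglobulin V segment, had 11.3, 2.83, 5.93, and 1.93 CPM without and 0.743, 0, 0.0945, and 0 CPM with anti–CTLA-4 (log2 −4.77, SE 0.62, 95% interval −6.21 to −3.32, adjusted P = 0.19 by edgeR and 0.00848 with no filter on low counts), in cells that do not make immunoglobulin. The fit with no filter adds genes with few counts and leaves those of *Igkv12-44* unchanged, so that its P depends on the added genes. Summed B cell markers in the same cells were 28.5–221 CPM without and 61.1–109 CPM with it, higher in 2 of 4 pairs. *Nkg7*, a granule gene of T and NK cells, was lower in 4 of 4 pairs, at 27.0, 25.4, 38.9, and 42.5 CPM without and 14.9, 21.8, 28, and 32.7 CPM with it (−0.48, SE 0.11, 95% interval −0.72 to −0.23). Summed CD8 T cell markers in these Cd3e− cells were 24.7–67.8 CPM without and 13.5–48.8 CPM with it, lower in 3 of 4 pairs. The share with a *Cd8a* UMI was 2.20% (95% exact interval 1.91% to 2.53%) without and 1.17% (0.963% to 1.42%) with it. These intervals count all cells of the 4 pools of a group and leave out the spread between pools. They therefore do not test a difference with anti–CTLA-4. The part of CD8 T cell RNA in the *Nkg7* value was not tested. By preparation the *Nkg7* difference was −1.09 (Percoll) and −0.15 (whole tumor). *Dynlt1b*, a dynein light chain with near-identical copies among which reads can be split (−0.84), and *Sept1*, a septin of lymphocytes (−0.62; −1.0 in Percoll and −0.36 in whole-tumor libraries), were lower in 4 of 4 pairs.

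Whether the anti–CTLA-4 difference itself differed between vaccinated and unvaccinated pools was tested as an interaction term. It called 0 genes in each population by edgeR, with 331 (3.18%), 205 (5.25%), and 760 (6.21%) genes at an unadjusted P below 0.05, and by DESeq2 2, 0, and 25. The counts depended on the setting. In Percoll libraries alone edgeR called 2 genes of Cd3e+Cd8a+ and 237 of C1qb+Cd3e− cells, and with no filter on low counts 147, 71, and 8 in the 3 populations. The lowest adjusted P values of edgeR were 0.328 in Cd3e+Cd8a+ cells (*Trav7-6*), 0.246 in Foxp3+ cells (*Lyz2*), and 0.173 in C1qb+Cd3e− cells (*Igkv1-110*), 2 of them receptor or antibody segments and the third a macrophage gene in Foxp3+ cells. Each arm of this comparison holds 2 pools, so that leaving out any pool leaves an arm of 1. Without the PancVAX pool the counts were 50, 47, and 659, on the assumption that the lone PancVAX + Anti-PD-1 pool varies like the other pools.

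Cell shares were compared with an exact permutation test over the 70 divisions of the 8 pools, whose smallest two-sided P is 0.0286, and over the 16 sign changes of the 4 pairs, whose smallest is 0.125. The first has no covariates, so that differences between pools with and without PancVAX or anti–PD-1 count as spread in its P and in the SDs. The pairs hold both agents fixed, but no P below 0.05 was possible with 4 pairs. A share of a pool is the mean of its 2 libraries. Cd3e+Cd8a+ cells made up 12.0%, 13.6%, 16.0%, and 16.2% of cells without and 15.6%, 15.6%, 14.1%, and 21.2% with anti–CTLA-4. The means were 14.5% ± 2.01 and 16.6% ± 3.15 (SD, n = 4), a difference of 2.18 percentage points (exact permutation P = 0.371, adjusted over 5 tests 0.75), higher in 3 pairs and lower with PancVAX alone (P = 0.25 by the exact permutation of pair signs). It ran from 0.64 points, without the PancVAX + Anti-PD-1 + Anti-CTLA-4 pool, to 3.01 points when 1 pool at a time was left out. Percoll libraries alone gave a difference of 4.74 points (exact permutation P = 0.0286 over pools and 0.125 over pair signs, the smallest each can give), with 13.6%, 15.8%, 15.91%, and 12.7% without and 18.9%, 17.8%, 15.93%, and 24.3% with the antibody, in which the PancVAX pair was nearly equal. The largest of these pair differences rests on the Percoll library of the PancVAX + Anti-PD-1 pool, where 7413 of 11979 barcodes passed the limits. Its share of 12.7% was below the 19.7% of its whole-tumor library. The PancVAX pool had 15.9% and 16.1%, and in the other pools the share was higher with Percoll. The part of this library in the difference was not tested. Whole-tumor libraries alone gave −0.38 points (exact permutation P = 0.914), and both preparations with cells above the upper limits kept −0.20. With every cell thinned to 1000 UMIs the difference was 1.25 points (exact permutation P = 0.171), from shares of 5.66–6.77% without and 5.59–9.39% with it.

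Foxp3+ cells made up 5.01%, 5.07%, 3.13%, and 3.42% of Cd3e+ cells without and 2.56%, 4.34%, 4.45%, and 3.43% with anti–CTLA-4. These shares rest on 38 (Anti-CTLA-4) to 113 (PancVAX + Anti-PD-1) Foxp3+Cd3e+ cells per pool, with 46 in the Isotype Control pool. The groups overlapped, with means of 4.15% ± 1.03 and 3.70% ± 0.883 (SD, n = 4) and a difference of −0.46 points (exact permutation P = 0.514, adjusted 0.75, and 0.75 over pair signs), which ran from −0.80 to −0.08 when 1 pool at a time was left out, nearest 0 without the Anti-CTLA-4 pool. The share was lower with the antibody in both unvaccinated pairs, by most without other agents (−2.45 points), higher with PancVAX (1.33 points), and nearly equal with PancVAX and anti–PD-1 (0.01 points). Thinned to 1000 UMIs the difference was −0.34 points (exact permutation P = 0.371), with the stricter gate it was −0.14 (exact permutation P = 0.743), and by preparation −0.70 (Percoll) and −0.22 (whole tumor). A *Foxp3* UMI also occurred in 0.175% of C1qb+Cd3e− cells with and 0.181% without the antibody (median 4027 and 3487 UMIs per cell), a background that free RNA or doublets could give and that was not resolved further. In Cd3e+Cd8a+ cells, which count among the Cd3e+ cells, it occurred in 0.257% (95% exact interval 0.133% to 0.448%) with and 0.793% (0.546% to 1.11%) without the antibody. Of the 33 cells without the antibody, 21 were in the PancVAX + Anti-PD-1 pool. These intervals count all cells of the 4 pools of a group and leave out the spread between pools, so that they do not test a difference. The part of the Cd3e+Cd8a+ cells with a *Foxp3* UMI in the share of Foxp3+ cells was not tested. The ratio of Cd3e+Cd8a+ to Foxp3+ cells was 11.7, 11.4, 18.0, and 12.3 without and 21.7, 13.4, 10.5, and 16.2 with anti–CTLA-4 (exact permutation P = 0.543, adjusted 0.75, and 0.625 over pair signs). Its difference of 2.13 was 0.04 without the Anti-CTLA-4 pool and 0.56 when cells above the upper limits were kept. The ratio takes all 647 Foxp3+ cells, of which 546 were Cd3e+. Cells in both populations, 12 with and 33 without the antibody, count on both of its sides. C1qb+Cd3e− cells took 35.5%, 31.7%, 32.9%, and 25.8% of cells without and 33.5%, 38.0%, 31.0%, and 26.0% with it, a difference of 0.64 points (exact permutation P = 0.83, the same after adjustment, and 0.875 over pair signs). Its sign was not settled, at −1.31 without the Anti-PD-1 + Anti-CTLA-4 pool, −1.26 without the PancVAX + Anti-PD-1 pool, and −0.40 when cells above the upper limits were kept.

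**Figure D5:**
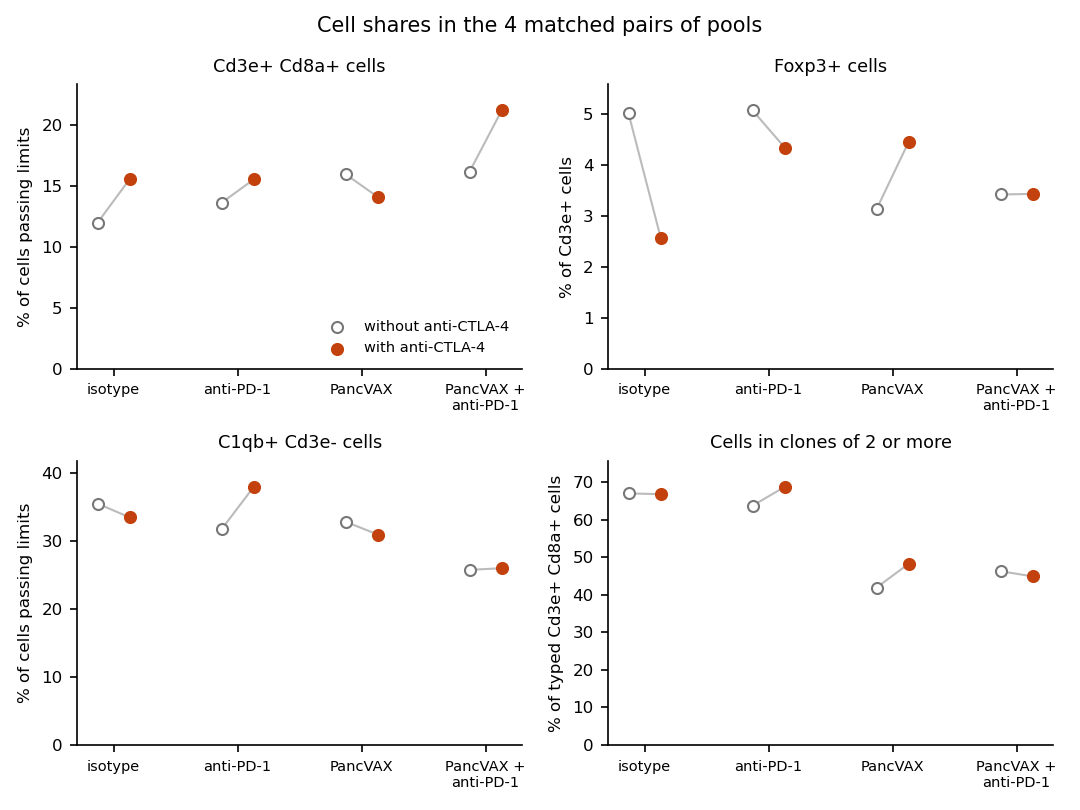
Share of each population by pool, and share of receptor-typed Cd3e+Cd8a+ cells in clones of 2 or more cells after thinning to 224 cells, with matched pools joined by a line, open points without and filled points with anti–CTLA-4. Foxp3+ cells were at 2.56% with anti–CTLA-4 alone (38 Foxp3+Cd3e+ cells) against 5.01% in the isotype pool (46 cells), whereas with PancVAX they were at 4.45% against 3.13%. The groups overlap in every panel, and each panel starts at 0.

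T cell receptor contigs of the Percoll libraries typed 224 to 759 Cd3e+Cd8a+ cells per pool, 70.1% of them in the PancVAX + Anti-PD-1 pool and 83.9–91.8% elsewhere. Thinned to 224 cells, clones of 2 or more cells (same TRB V gene and CDR3) held 67.0%, 63.7%, 41.9%, and 46.3% of typed cells without and 66.8%, 68.7%, 48.3%, and 44.9% with anti–CTLA-4. The means were 54.7% ± 12.5 and 57.2% ± 12.3 (SD, n = 4, exact permutation P = 0.6, adjusted 0.75, and 0.5 over pair signs). Unvaccinated pools lay at 63.7–68.7% and vaccinated pools at 41.9–48.3%, so that these SDs largely hold the difference between them. The difference of 2.46 points with anti–CTLA-4 was 4.99 without thinning, and it turned negative without the Anti-CTLA-4 (−0.75), Anti-PD-1 + Anti-CTLA-4 (−1.40), PancVAX (−1.81), or PancVAX + Anti-PD-1 pool (−0.36). The largest clone of a pool took 7.14%, 11.0%, 2.76%, and 3.94% of typed cells without and 14.4%, 8.55%, 5.10%, and 10.4% with the antibody, higher in 3 of 4 pairs. Those of 7.14% and 14.4% each held 2 nucleotide sequences of the CDR3.

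The largest clones of 4 pools are shown because they show how far the expansions were private to a pool. The CDR3 of the β chain is printed 5′ to 3′ as the contigs give it. In the Isotype Control clone 8 of 16 cells and in the Anti-CTLA-4 clone 58 of 80 cells carried the nucleotides shown, and in the other 2 clones every cell did. The Isotype Control and Anti-CTLA-4 clones each held 2 nucleotide sequences, joined by the amino acid CDR3, and so may not be single clones.
Isotype Control, TRBV16, 16 cells: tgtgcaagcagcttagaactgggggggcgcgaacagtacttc
Anti-CTLA-4, TRBV5, 80 cells: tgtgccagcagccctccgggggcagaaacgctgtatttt
Anti-PD-1 + Anti-CTLA-4, TRBV16, 53 cells: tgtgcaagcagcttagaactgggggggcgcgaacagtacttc
PancVAX + Anti-PD-1 + Anti-CTLA-4, TRBV20, 79 cells: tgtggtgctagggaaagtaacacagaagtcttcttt
The TRBV16 clone was the largest in a pool without and in a pool with anti–CTLA-4, and the same V gene and amino acid CDR3 occurred in 5 pools besides the Isotype Control pool (84 cells, 72 of them with the nucleotides shown). None of these 84 cells shared a barcode with the clone. The TRBV20 clone was seen in no other pool, and the TRBV5 clone in 1 cell of 1 other pool. The clones shown were chosen after their values were seen. By share of typed cells, with clones defined by V gene and amino acid CDR3, the largest clone of the Anti-PD-1 pool (11.0%), which is not shown, came second to that of the Anti-CTLA-4 pool (14.4%). By single nucleotide sequences these 2 stood in the reverse order, with 48 of 437 typed cells in the Anti-PD-1 pool and 58 of 555 in the Anti-CTLA-4 pool. No test of single clones was made.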

How the data were processed

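Raw UMI counts per gene and cell were deposited by the authors, who made them from 10x 5′ libraries with Cell Ranger 4.0.0 on the mm10 mouse genome, and receptor contigs were deposited for the Percoll libraries. As in the methods, a cell was kept if it had 1000–10000 UMIs, 200–3000 genes, a mitochondrial share below 10%, and no hemoglobin transcript. No doublet caller was run and no doublet step is stated; the upper limits are the only guard. Counts of each population were summed over both preparations of a pool and tested with edgeR 4.0.16 (R 4.3.3; TMM scaling, filterByExpr, quasi-likelihood test, Benjamini-Hochberg adjustment) with the vaccine and both antibodies as terms. DESeq2 1.42.0 was an alternative. The named genes were *Ctla4*, the 5 genes of lowest P in each population with at least 100 UMIs, and members of gene lists. Values of many list members are not reported here. The scripts were tested on simulated data. Of 100 genes given a 2-fold change, 79 were called with the right sign in Cd3e+Cd8a+, 38 in Foxp3+, and 67 in C1qb+Cd3e− sums. Of 100 given a 1.5-fold change, 45, 3, and 37 were called, and 14, 5, and 11 unchanged genes were called falsely. Both sets of changed genes were in the same simulated data, and PancVAX and anti–PD-1 were given no effect. The adjustment is stricter where fewer genes change, so that these counts do not give the chance of calling a lone gene. Members and lists were chosen with earlier results of these data known. P values measure the spread between pools, since the labels do not tie libraries to single mice, and intervals of shares cover counting error only. Since no treatment was repeated, that spread also holds any dependence of an agent's effect on the other agents. Preparation and sequencing batch coincided, so they cannot be told apart.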

Additional observations from a re-analysis of the deposited data

Results flagged for a closer look

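In 11 of 214 groups of 4 pools 1 pool stood apart from the other 3 by Dixon's test at its 95% critical value, and chance flags about 5% of groups. Without anti–CTLA-4 the ratio of Cd3e+Cd8a+ to Foxp3+ cells was highest in the PancVAX pool (17.97). In Foxp3+ cells without the antibody *Batf* was highest in the Anti-PD-1 pool (149.6 CPM), and *Cxcr3* (291.6 CPM) and *Tnf* (110.6 CPM) were highest in the PancVAX pool. In Foxp3+ cells with it *Mki67* was highest in the pool with all 3 agents (199.0 CPM).

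In C1qb+Cd3e− cells with anti–CTLA-4 the PancVAX + Anti-CTLA-4 pool had the lowest *Ifit3* (19.37 CPM) and the highest *Il12b* (23.71 CPM). *Igkv12-44* was highest in the Anti-CTLA-4 pool (0.7433 CPM) and *Ifit1* in the Anti-PD-1 + Anti-CTLA-4 pool (16.8 CPM). Without the antibody the PancVAX + Anti-PD-1 pool had the highest *Oasl1* (37.76 CPM) and the lowest *Ccr2* (29.49 CPM).

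The share of Foxp3+ cells among Cd3e+ cells was lower with anti–CTLA-4 in both unvaccinated pairs, higher by 1.33 points with PancVAX, and nearly equal with PancVAX and anti–PD-1 (0.01 points; 1.69% with against 1.95% without when cells were thinned to 1000 UMIs, the opposite sign). The mean difference of the vaccinated pairs exceeded that of the unvaccinated pairs by 2.258 percentage points. This difference was not tested.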

How the results depend on the processing

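The labels give no replicate numbers to pair samples by; pools were matched by their other agents, and with the 4 combinations of the other agents as a block, 1 gene of Foxp3+ cells passed. Genes past the threshold for anti–CTLA-4 numbered 1 (Cd3e+Cd8a+) and 2 (C1qb+Cd3e−) with DESeq2, and 5, 36, and 4 in Cd3e+Cd8a+, Foxp3+, and C1qb+Cd3e− cells with no filter on low counts. Leaving out 1 pool at a time gave 0 to 2, 0 to 1, and 0 to 2. For the interaction with PancVAX, DESeq2 called 2 genes (Cd3e+Cd8a+) and 25 (C1qb+Cd3e−), no filter gave 147, 71, and 8, Percoll libraries gave 2 (Cd3e+Cd8a+) and 237 (C1qb+Cd3e−), a mitochondrial limit of 5% gave 2 (Cd3e+Cd8a+), and a stricter gate 1 in both T cell populations. Leaving out 1 pool gave 0 to 50, 0 to 47, and 0 to 659 genes, the highest counts without the PancVAX pool, with 1 arm then a lone pool assumed to vary like the others. The share difference of Cd3e+Cd8a+ cells was 4.74 points in Percoll and −0.38 in whole-tumor libraries and −0.20 without upper limits on UMIs and genes, where that of C1qb+Cd3e− cells was −0.40. Without 1 pool the Cd3e+Cd8a+ difference ran from 0.64 to 3.01, that of Foxp3+ cells from −0.80 to −0.08, and that of their ratio from 0.04 to 3.78; the C1qb+Cd3e− difference ran from −1.31 (without Anti-PD-1 + Anti-CTLA-4) to 2.68 points, and that of cells in clones from −1.81 (without PancVAX) to 6.55. The causes were not tested. Of 102 named genes 52 kept their sign in every alternative, and 39 had the other sign without upper limits, as had 28 of 89 in whole-tumor libraries.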
